A study of Mus musculus with 8 samples.

Results

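Nuclear-encoded genes of oxidative phosphorylation (OXPHOS) were examined in a catalogue of transcription start sites from mouse facial skin. They were the genes whose symbol in the table began with Ndufa, Ndufb, Ndufs, Ndufv, Uqcr, Cox4 to Cox8 or Atp5, or was Sdha, Sdhb, Sdhc or Sdhd. Of 16094 gene symbols in the catalogue, 87 met this rule, with 226 of the 84475 distinct clusters. Lesional skin came from 4 Cre-positive mice with floxed Ikk2, written Nectin-cre(+);Ikk2FL/FL in the sample labels and Nestin-cre in the series text. Non-lesional skin came from 4 mice labelled Control, whose alleles the labels do not give further. All 8 were C57BL/6 mice at postnatal day 28. Ikk2 is the kinase gene Ikbkb of the NF-κB pathway, the Cre is named after a gene expressed in neural and other progenitor cells, and lesion and genotype cannot be told apart in this design. The assay was CAGE, which sequences the capped 5′ ends of RNA, so that a cluster of tags marks a place where transcripts start.

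The table carried 8 columns of values whose names match no label of a mouse. They were not used, so no level of a gene, no depth of a library and no difference between lesional and control skin is given, and the p-value of such a difference was not computed. What follows describes where the starts of these genes lay, how wide their clusters were and which genes shared them, for the series as a whole. Values describe 1 catalogue and carry no replicate error. A cluster does not show which mice it came from.

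Mitochondria make ATP by passing electrons from NADH and succinate through complexes I to IV to oxygen, and ATP synthase uses the proton gradient so formed. A few subunits are encoded by mitochondrial DNA, and all others by nuclear genes that must be expressed together. Known regulators of these genes in mammals include NRF1, the ETS factor GABP and YY1, and the coactivators of the PGC-1 family. Complex IV, cytochrome c oxidase, has subunits with a form of skeletal muscle and heart (Cox6a2, Cox7a1 and Cox8b) and a form of most other cells (Cox6a1, Cox7a2 and Cox8a).

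Promoter sequences of the isoform pairs are shown first, for Cox8b and Cox7a1 of the muscle forms and for all 3 general forms. Cox6a2 is not among them. Each stretch comes from RefSeq (GRCm38.p6) and holds 200 bases before the annotated start and the first 30 after it. Capitals mark a match on either strand to the motif of a factor or promoter element. The E-box bound by muscle factors was searched as CAGCTG, and the TATA box, which places the start in many tissue-restricted genes, as TATAAA. The ETS motif of GABP and its relatives was searched as CCGGAAG. The letters searched for SP1, a factor of CpG-rich promoters, were GGGCGGG, and the NRF1 motif was its palindromic consensus. Cox8b lies at chr7:140900417-140900646 on the minus strand, Cox8a at chr19:7217587-7217816 on the minus strand, Cox7a1 at chr7:30183971-30184200 on the plus strand, Cox7a2 at chr9:79759824-79760053 on the minus strand and Cox6a1 at chr5:115348929-115349158 on the minus strand.
Cox8b: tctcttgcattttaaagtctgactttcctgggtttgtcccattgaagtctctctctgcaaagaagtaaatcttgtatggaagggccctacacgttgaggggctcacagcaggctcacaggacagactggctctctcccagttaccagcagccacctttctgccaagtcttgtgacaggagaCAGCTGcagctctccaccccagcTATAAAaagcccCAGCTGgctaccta
Cox8a: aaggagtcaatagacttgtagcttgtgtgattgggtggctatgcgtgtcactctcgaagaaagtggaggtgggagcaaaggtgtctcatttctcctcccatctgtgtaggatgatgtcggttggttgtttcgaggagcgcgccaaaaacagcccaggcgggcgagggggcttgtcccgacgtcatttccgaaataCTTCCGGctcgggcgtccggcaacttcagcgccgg
Cox7a1: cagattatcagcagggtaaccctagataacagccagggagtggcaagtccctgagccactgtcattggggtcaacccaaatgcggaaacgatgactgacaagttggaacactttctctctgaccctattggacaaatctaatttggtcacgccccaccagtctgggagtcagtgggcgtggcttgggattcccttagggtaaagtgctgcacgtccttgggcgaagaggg
Cox7a2: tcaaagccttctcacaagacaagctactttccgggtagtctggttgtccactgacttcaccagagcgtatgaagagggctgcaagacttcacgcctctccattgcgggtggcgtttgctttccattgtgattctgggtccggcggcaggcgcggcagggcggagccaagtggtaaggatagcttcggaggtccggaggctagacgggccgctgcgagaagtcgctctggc
Cox6a1: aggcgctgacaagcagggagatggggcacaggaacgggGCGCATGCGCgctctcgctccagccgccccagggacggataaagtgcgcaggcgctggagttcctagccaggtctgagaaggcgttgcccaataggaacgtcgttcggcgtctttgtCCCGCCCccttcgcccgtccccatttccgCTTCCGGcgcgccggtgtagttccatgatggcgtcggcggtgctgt
The Cox8b stretch held a TATA box that began 4 bases after the annotated start base, flanked by E-boxes, and held no ETS, SP1 or NRF1 motif. The Cox6a1 stretch held an NRF1, an SP1 and an ETS motif. Cox8a had an ETS motif that began 5 bases before its start base. Cox7a1 and Cox7a2 held none of the searched motifs, so the motifs differed between muscle and general form in the Cox8 pair alone of the pairs shown in full. A match of letters is not a binding site, and a missing match says nothing of the factor.

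All 3 muscle isoforms of complex IV had a start site in facial skin. Cox6a2 had a cluster of 167 bp on the minus strand of chromosome 7 (mm9, 135349794 to 135349961, coordinates as deposited) and a second of 3 bp that began 242 bp downstream. Its general partner Cox6a1 had 5 clusters, the widest of 69 bp on the minus strand of chromosome 5 (115798932 to 115799001) and the other 4 of 2 to 7 bp. In this pair the muscle form had the wider of the widest clusters and the general form the larger number of clusters. Cox7a1 had 1 cluster of 82 bp on chromosome 7, plus strand (30969153 to 30969235), and Cox7a2 had 1 of 107 bp on the minus strand of chromosome 9 (79607485 to 79607592). Cox8b had 1 cluster of 148 bp on the minus strand of chromosome 7 (148086223 to 148086371). Cox8a had 1 of 133 bp on the minus strand of chromosome 19 (7291994 to 7292127) and 1 of 2 bp. The muscle form was thus wider in 2 of the 3 pairs. The difference within a pair, muscle minus general form, was 98 bp for Cox6a, -25 bp for Cox7a and 15 bp for Cox8, with a median of 15 bp. Over the genes without regard to pairs, the median widest span was 148 bp for the muscle forms and 107 bp for the general forms, a difference of 41 bp with ranges that overlapped (82 to 167 bp and 69 to 133 bp). With 3 genes of each kind no test was made.

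The forms also differed in the base composition of their promoters. The CpG observed to expected ratio over the RefSeq window (250 bases before and 50 after the start) was 0.115 for Cox8b and 0.333 for Cox7a1, against 0.842 for Cox8a, 0.833 for Cox7a2 and 1.07 for Cox6a1. Both muscle forms with a window lay below all 3 general forms. A low ratio was not particular to muscle forms within complex IV, since Cox7b, a subunit of most cells, had 0.368. CpG-rich promoters are typical of genes active in most cells, and CpG-poor ones of tissue-restricted genes.

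**Figure D1:**
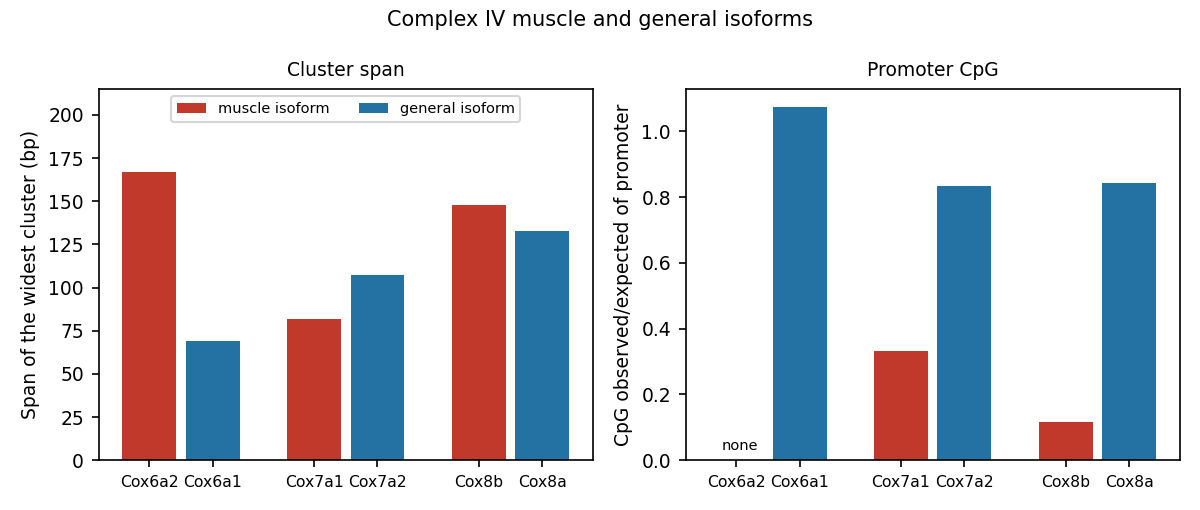
Left, span in bp of the widest cluster of each muscle isoform (red) and its general counterpart (blue); right, the CpG observed to expected ratio of their RefSeq promoter windows, with no bar for Cox6a2. The muscle forms are wider in 2 of the 3 pairs, and the 2 with a window, at 0.115 and 0.333, lie below the 3 general forms at 0.833 to 1.07.

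Skeletal muscle lies under facial skin, and 15 of 16 skeletal muscle markers had a cluster, with Ttn at 35 clusters, Myh1 at 15, Tnni2 at 14 and Ckm with a cluster of 206 bp. Only Myh7, the slow myosin heavy chain, had none in the clusters analysed here. Cox7a1 and Cox8b are also known from brown fat. Of 5 genes looked up for brown fat, 4 had a cluster (Cidea, Elovl3, Dio2 and Ppara) and Ucp1, the defining uncoupling protein, had none. Whether the 4 mark brown fat in skin was not tested. Of 6 heart markers, 2 had a cluster (Nppb, 38 bp, and Myl4, 60 bp), whereas Myh6, Nppa, Myl7 and Tnni3 had none. All 4 keratinocyte, all 4 fibroblast and all 4 white fat markers had one. A marker counted with a cluster of any span, such as 7 bp for Lep, and the share of all known genes with a cluster was not computed. The counts therefore do not tell cell types apart. The part of any of these cells in the muscle isoform starts was not tested.

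In 3 further pairs the restricted or inducible form had the narrower widest cluster, unlike the Cox6a and Cox8 pairs above. The Ndufa4l2 pair was picked after values were seen. Cox4i2, a form of subunit IV known from lung and from low oxygen, had 3 clusters of which the widest spanned 22 bp (chromosome 2, mm9, 152579894 to 152579916). Its general form Cox4i1 had a cluster of 119 bp on chromosome 8 (123192126 to 123192245). At 22 bp the widest Cox4i2 cluster was narrower than that of any other Cox4 to Cox8 gene. Cox6b2, known from testis, had a single cluster of 106 bp, against one of 152 bp for its relative Cox6b1. Ndufa4l2, a hypoxia-responsive relative of Ndufa4, had 1 cluster of 65 bp, against 2 for Ndufa4 with the widest at 158 bp. The testis forms Cox7b2 and Cox8c had no cluster under any of their names among those analysed here.

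Across the 87 genes the widest cluster had a median span of 121 bp (quartiles 85 and 155 bp), against 110 bp (67 and 159 bp) for all genes with a symbol and 118 bp for protein-coding symbols. It reached at least 100 bp in 61 genes, or 70.1% (95% Wilson interval 59.8 to 78.7, counting error only), where the background over all genes was 56.0% and that over protein-coding symbols was 61.2%. The interval held the share of protein-coding symbols but not that of all genes. The widest cluster spanned under 10 bp in 1 member (1.15%, no interval computed), against 8.80% of all genes and 5.44% of protein-coding symbols. That member was Atp5l2, at 4 bp, which RefSeq names as the pseudogene Atp5l2-ps. The value of 100 bp splits a dense range, with 2 members from 90 to under 100 bp and 11 from 100 to under 110 bp. Expression levels were not used, and whether the span of a cluster moves with level was not tested.

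**Figure D2:**
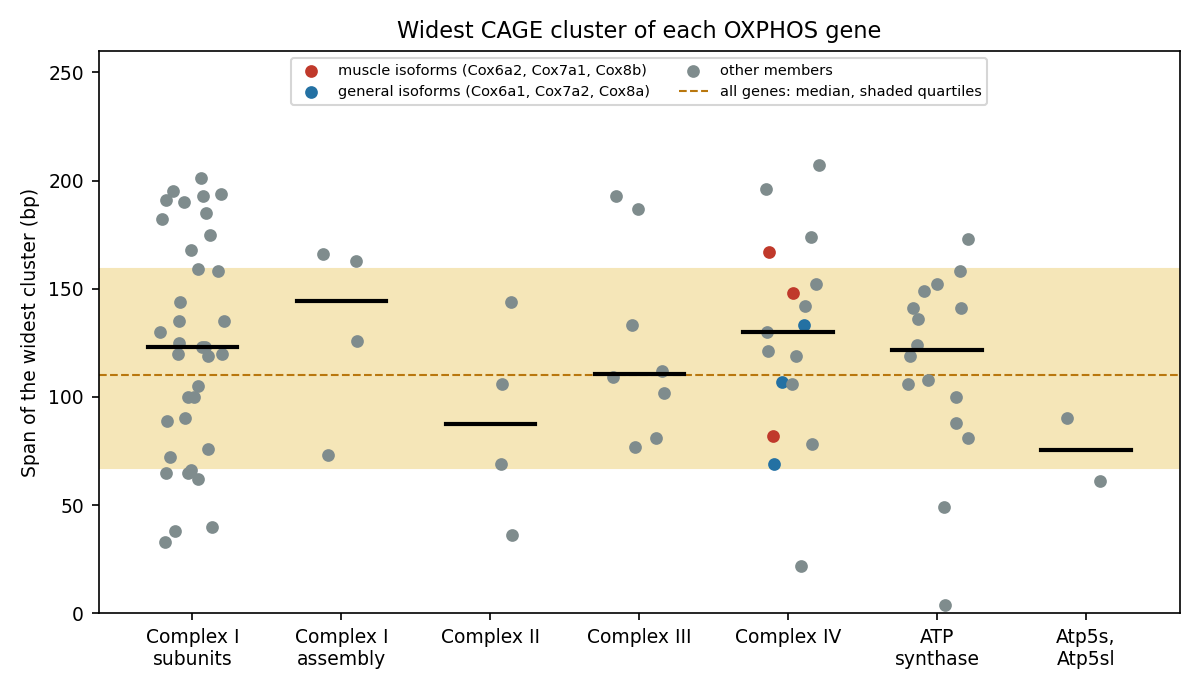
Span in bp of the widest CAGE cluster of each of the 87 genes (points), by the complex that the symbol names, with the group median as a black bar; the dashed line and shading give the median (110 bp) and quartiles (67 and 159 bp) of all genes. Medians run from 75.5 bp for Atp5s and Atp5sl to 144.5 bp for the complex I assembly genes, and the single point near 0 is Atp5l2 at 4 bp.

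Complex I, NADH dehydrogenase, was the largest group by symbol, with 36 genes and 87 clusters. The group holds Ndufa4, now known as a subunit of complex IV, and its relative Ndufa4l2, both placed there by name alone. Its widest clusters had a median of 123 bp and ran from 33 bp for Ndufa3 to 201 bp for Ndufa6, and 25 of the 36 reached 100 bp. Among the core subunits, Ndufs1 had a widest cluster of 185 bp and Ndufs7 one of 40 bp. Ndufb11, an accessory subunit encoded on the X chromosome, had the most clusters in the complex, at 10, of which 6 spanned under 10 bp. They all lay within 421 bp downstream and 221 bp upstream of the widest one, which spanned 66 bp (20194674 to 20194740). Ndufa13 had a second wide cluster of 112 bp, which began 1464 bp downstream of the first of 195 bp. Wide single clusters of 193, 191, 190 and 182 bp were seen for the accessory subunits Ndufb4, Ndufb7, Ndufa2 and Ndufa1, while Ndufa5, with 7 clusters, had none over 38 bp. In Ndufa5, 4 of the other clusters lay within 106 bp upstream of the widest, so a row of narrow clusters can line a broader start region. The widest cluster was thus narrow in some accessory subunits and wide in others. Ndufa10 had a second cluster of 50 bp that lay 13262 bp downstream of its first of 130 bp. The 4 assembly factors Ndufaf1 to Ndufaf4 had 5 clusters in all, with Ndufaf2 the widest at 166 bp and Ndufaf3 the narrowest at 73 bp.

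Complex II, succinate dehydrogenase, had the lowest median among the 5 complexes, at 87.5 bp over 4 genes. Sdha, the flavoprotein, had a cluster of 106 bp and one of 3 bp that lay 10469 bp downstream. Sdhb, the iron-sulfur subunit, had 8 clusters, of which the widest spanned 144 bp on chromosome 4, plus strand (140517183 to 140517327). The other 7 spanned 2 to 9 bp and lay within 84 bp upstream or 23 bp downstream, so that they lined a single start region. Sdhc and Sdhd, the membrane anchors, had 1 cluster each, of 36 and 69 bp. The Sdhb promoter (RefSeq, GRCm38.p6, chr4:140961071-140961300, plus strand) is shown for the subunit with the most clusters in complex II, with an ETS motif just after the start and SP1 motifs before it in capitals. Its CpG observed to expected ratio of 0.571 lay below the lower quartile of OXPHOS windows, at 0.678.
Sdhb: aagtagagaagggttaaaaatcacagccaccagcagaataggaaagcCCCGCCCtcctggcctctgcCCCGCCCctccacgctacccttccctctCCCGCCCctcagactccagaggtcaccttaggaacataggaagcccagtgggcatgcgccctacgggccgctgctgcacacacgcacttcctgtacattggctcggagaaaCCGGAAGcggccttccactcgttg

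Complex III, the cytochrome bc1 complex, had 8 genes and 16 clusters, with a median widest span of 110.5 bp. Uqcrfs1, the Rieske iron-sulfur protein, was the widest at 193 bp, followed by the hinge protein Uqcrh at 187 bp, and Uqcr10 was the narrowest at 77 bp. Uqcr10, Uqcrc1, Uqcrc2 and Uqcrq had 3 clusters each. In Uqcrc1, a core protein, a second wide cluster of 85 bp lay 282 bp upstream of the one of 109 bp. In Uqcrc2 the additional clusters spanned 3 bp each, and the farther lay 15609 bp downstream, the largest distance among the 87 genes.

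The Cox4 to Cox8 group, with 17 genes and 41 clusters, had a median widest span of 130 bp. Cox6c had the most clusters, at 6, with the widest at 78 bp. The widest cluster of the group, at 207 bp, belonged to Cox4nb. Cox4nb is the older name of Emc8, a subunit of a membrane protein insertion complex of the endoplasmic reticulum, and entered by its symbol alone. Cox7a2l, at 121 bp, encodes a factor that joins complexes III and IV into supercomplexes. Cox5a and Cox5b, general nuclear subunits around the catalytic core, had widest clusters of 196 and 174 bp.

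ATP synthase had 16 genes and 62 clusters, and a median widest span of 121.5 bp. Atp5b, the catalytic β subunit, had 17 clusters, the most of any member. They ran over 5065 bp downstream of the first, which spanned 108 bp on chromosome 10, plus strand (127520306 to 127520414), and 12 of the 17 spanned under 10 bp. A second cluster of 108 bp lay 532 bp downstream of the first. Of these 17 clusters, 12 had also been given to another gene inside the locus (SNORD59 or a gene named after a clone), so the table does not say which of them was transcribed there. Atp5a1, the α subunit, had a cluster of 149 bp and others of 139 and 107 bp that lay 4376 and 4646 bp downstream. Atp5d, the δ subunit, had a cluster of 106 bp lying 3544 bp upstream of its widest, at 141 bp. Atp5h, a stalk subunit, had 2 clusters of 100 bp with 1338 bp between them.

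ATP synthase moves protons with the help of a ring of identical c subunits, for which 3 genes encode the same mature protein with different import sequences. These genes differed in the number and span of their clusters. Atp5g1 had 1 cluster of 124 bp (chromosome 11, 95936896 to 95937020) and Atp5g2 had 1 of 152 bp (chromosome 15, 102501387 to 102501539), which it shared with the microRNA gene Mir688. Atp5g3 had 10 clusters, none wider than 49 bp and 7 of them under 10 bp. The widest lay at 73747950 to 73747999 on chromosome 2, and the other 9 formed a string 1048 to 1428 bp upstream of it. Atp5g3 thus had many narrow clusters, where Atp5g1 and Atp5g2 had a single wide one each. Part of the string lay close together, from 73749329 to 73749429. Whether it is 1 start region split by the way tags were joined was not tested. Atp5s and Atp5sl, now named Dmac2l and Dmac2, had widest clusters of 90 and 61 bp. Atp5e, Atp5j2 and Atp5k, small subunits of the synthase, each had a single cluster, of 88, 81 and 136 bp.

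How the number of clusters per gene compared with the background depended on narrow clusters. With all clusters, at least 2 clusters were found for 50 of the 87 genes (57.5%, 95% Wilson interval 47.0 to 67.3), against 54.3% of all genes and 57.6% of protein-coding symbols, and the median was 2 in each. These shares were close, and the interval held both backgrounds. With clusters of at least 10 bp, 26.7% of OXPHOS genes had 2 or more, against 37.0% of all genes. The share of protein-coding symbols with this setting is not given. Of the 87, 37 had a single cluster, 22 had 2, 16 had 3 or 4 and 12 had 5 or more. The 5 genes with the most clusters (Atp5b, Atp5g3, Ndufb11, Sdhb and 1 of Atp5j and Ndufa5, which tied at 7) held 52 of the 226, or 23.0%. The 139 clusters beside the widest were mostly narrow, with a median of 3 bp, and 104 of them (74.8%) spanned under 10 bp, against 68.7% and a median of 4 bp over all genes. Of the 139, 89 lay downstream of the widest cluster (64.0%, against 60.3% over all genes) and 50 upstream. Median distances were 894 bp downstream and 215.5 bp upstream. Distances from the widest cluster were not summarised over all genes, so these medians and the counts that follow have no background. Clusters over 1000 bp from the widest were found in 22 genes, and such clusters of at least 10 bp in 11. Whether these are separate start sites was not tested.

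**Figure D3:**
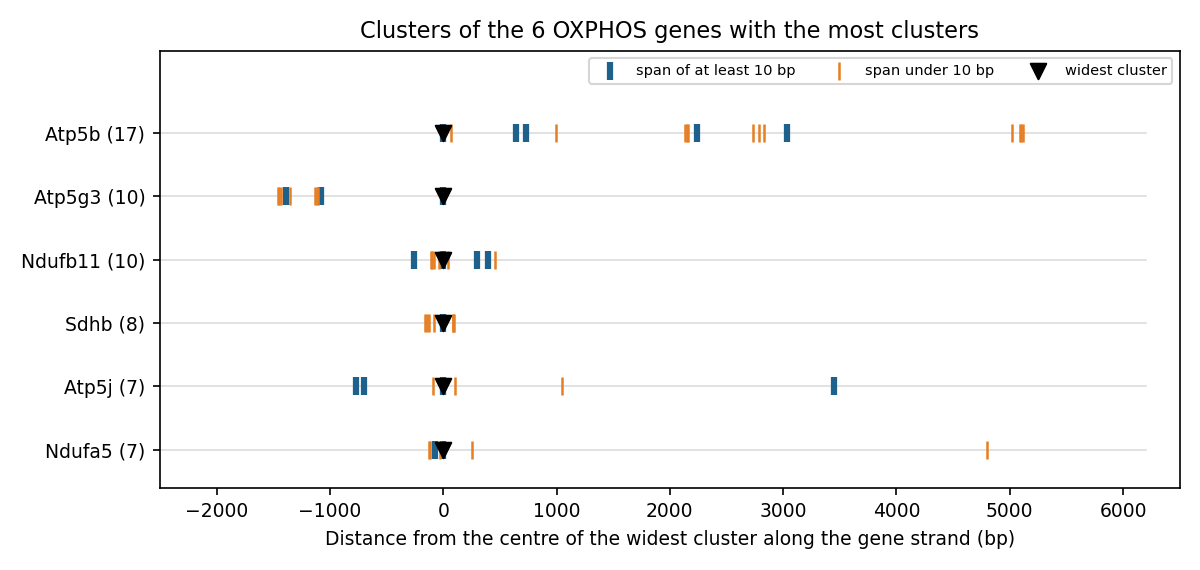
Clusters of the 6 genes with the most clusters (number in brackets), placed by distance in bp from the centre of the widest cluster along the gene strand; blue marks span at least 10 bp, orange marks under 10 bp, and the triangle is the widest. Sdhb and Ndufb11 are compact, Atp5b runs over 5065 bp downstream, and Atp5g3 has its other 9 clusters upstream.

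A divergent cluster, which starts on the opposite strand and points away from the gene within 400 bp of its widest cluster, was found for 27 of the 87 genes (31.0%, 95% Wilson interval 22.3 to 41.4), against 22.2% of all genes. The partner had a gene symbol for 19 of them (21.8%, interval 14.5 to 31.6), against 13.0% of all genes. Gaps had a median of 47 bp, against 80 bp over all genes, and 14 were at most 50 bp. Intervals of shares over genes cover counting error only, and genes are not replicates.

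The partners named here were chosen after their values were seen, and their roles were not counted over all partners. Ndufs1, the largest core subunit of complex I, lay 4 bp from Eef1b2, a translation elongation factor (partner cluster 63223395 to 63223487, chromosome 1). Sdhd lay 18 bp from Timm8b, a chaperone of mitochondrial protein import. Ndufa7 lay 29 bp from Rps28, a cytosolic ribosomal protein, and Ndufb5 lay 198 bp from Mrpl47, a mitochondrial ribosomal protein. Ndufaf2 lay 72 bp from the DNA repair gene Ercc8, Atp5c1 lay 6 bp from Kin, Ndufb9 lay 4 bp from Tatdn1 and Ndufv3 lay 26 bp from the tRNA methylation factor Wdr4. Cox4i1 and Cox4nb formed a pair, with 47 bp between the Cox4nb cluster and a 10 bp cluster of Cox4i1.

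Atp5j, coupling factor 6 of ATP synthase, lay head to head with Gabpa. Gabpa encodes the DNA-binding subunit of GABP, the ETS factor known as a regulator of OXPHOS genes. The widest Atp5j cluster spanned 173 bp on the minus strand of chromosome 16 (84835083 to 84835256), and a Gabpa cluster of 6 bp began 6 bp beyond it on the plus strand (84835262 to 84835268). Gabpa had 15 clusters in all, the widest of 86 bp. A further Atp5j cluster of 107 bp lay 555 bp upstream of its widest. RefSeq gives Atp5j 2 start windows. The one not shown held an SP1 motif, but no ETS motif and no YY1 core. The one shown (GRCm38.p6, chr16:84834947-84835176, minus strand) held an ETS motif and a YY1 core (ATGGCGG), in capitals.
Atp5j: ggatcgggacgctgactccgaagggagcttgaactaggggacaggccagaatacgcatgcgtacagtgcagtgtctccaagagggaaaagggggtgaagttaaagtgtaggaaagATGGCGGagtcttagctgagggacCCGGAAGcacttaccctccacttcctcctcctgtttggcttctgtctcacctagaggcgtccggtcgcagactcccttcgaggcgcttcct

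**Figure D4:**
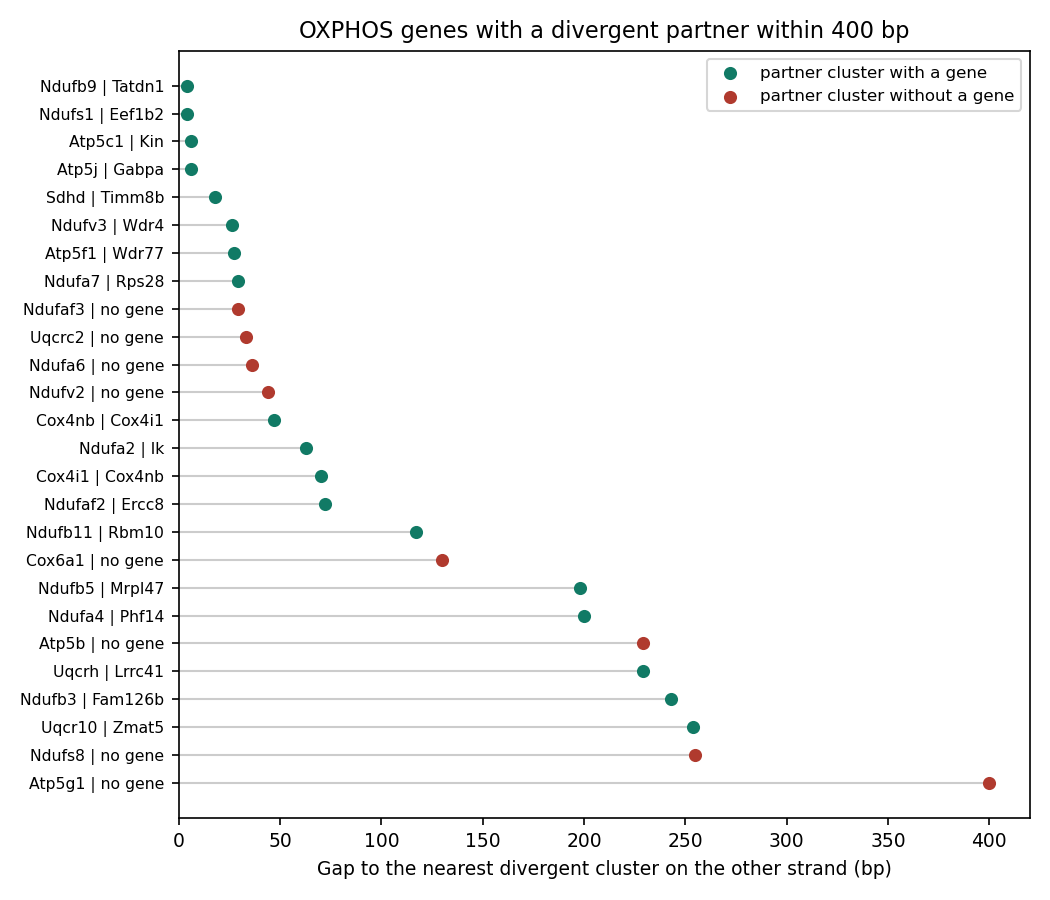
Gap in bp between the widest cluster of an OXPHOS gene and its nearest divergent cluster within 400 bp for 26 of the 27 genes, with the gene on the left of each label and its partner on the right; green points are partners with a gene (18) and red points partners without one (8). Gaps of 4 bp are seen for Ndufb9 with Tatdn1 and Ndufs1 with Eef1b2.

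RefSeq start windows were found for 71 of the 87 genes, giving 77 windows. On these 71 genes the chromosome and strand of the widest cluster equalled those of RefSeq. Whether the cluster lay in the window was not measured, since the builds differ. The ETS motif was held by 17 of the 77 windows (22.1%), against 15.6% of 13952 windows of other protein-coding genes with a cluster and 8.83% of all 32774 other windows. Examples were Cox6b1, Cox8a, Sdhb, Sdhd, Ndufs3, Uqcrh and Atp5h. The NRF1 motif was held by 6 windows (7.79%), those of Cox6a1, Ndufa11, Ndufaf4, Uqcrc1, Atp5g2 and Atp5k, against 1.82% and 0.96%. The YY1 core was held by 13 (16.9%), against 7.02% and 4.02%, and a longer YY1 motif that contains the core by 6 windows (7.79%) of 5 genes, against 1.28% and 0.62%. Those 5 were the complex I genes Ndufs4, Ndufs6, Ndufs7 and Ndufa9, and Atp5sl. In 5 of the 6 windows the longer motif lay after the annotated start.

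Motifs of general and tissue-restricted promoters were searched in the same windows. The SP1 motif was held by 27 (35.1%), against 44.5% of windows of other protein-coding genes with a cluster and 25.5% of all other windows. The muscle E-box was held by 6 (7.79%), against 15.9% and 16.3%, and the MEF2 motif by 1 (1.3%), that of Cox5b, against 3.11% and 3.69%. A TATA box anywhere in the window was held by 7 (9.09%), against 8.57% and 13.6%. On the gene's own strand, 20 to 40 bases before the annotated start, it was held by 0 of 77, against 2.03% and 2.0%. Its distance from the CAGE clusters was not measured. The median CpG observed to expected ratio was 0.833 over OXPHOS windows (quartiles 0.678 and 0.953), against 0.724 over windows of other protein-coding genes with a cluster and 0.383 over all others. The shares of all these motifs are descriptions of the genome annotation, with no test and no interval for counting error. None of the motifs NRF1, ETS, YY1 core or SP1 was in 28 of the 77 windows, a count not made over the other windows.

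**Figure D5:**
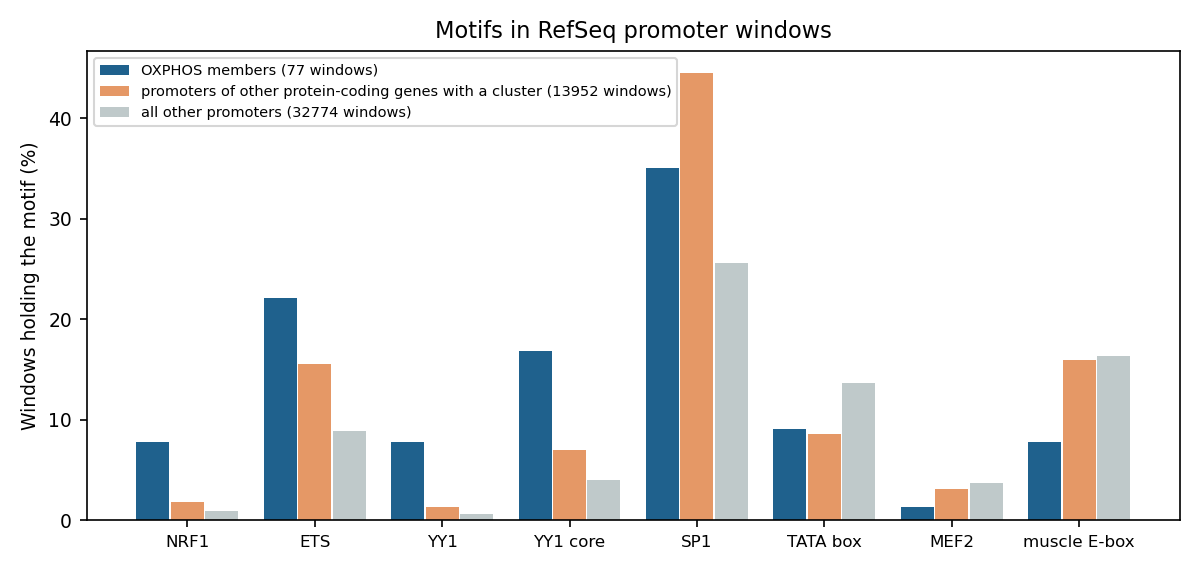
Share (%) of RefSeq start windows holding each motif on either strand, for 77 windows of OXPHOS genes (blue), 13952 of other protein-coding genes with a cluster (orange) and all 32774 others (grey). The bars for NRF1, ETS and both YY1 motifs are highest for the OXPHOS genes, and that for SP1 lies between the other two.

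Genes of the pathway that the symbol rule leaves out were looked up by name. Of 7 further OXPHOS genes, 6 had a cluster: cytochrome c1 (Cyc1, widest 118 bp), cytochrome c (Cycs, 6 clusters, widest 173 bp), Ndufc1 (109 bp), Ndufc2 (148 bp), Usmg5 (150 bp) and the ATP synthase inhibitor Atpif1 (150 bp). Cyct, the testis form of cytochrome c, had none among those analysed here. Of 22 assembly factors of complexes II to IV, 21 had a cluster, with a median widest span of 125 bp and a range of 32 bp for Surf1 to 200 bp for the copper chaperone Cox17. Sco2 was without one under that name. All 11 regulators had a cluster, with a median widest span of 107 bp. Among them Ppargc1a had 2 clusters with the widest at 134 bp, Nrf1 had 3 with the widest at 100 bp, Tfam, the mitochondrial transcription factor, had 1 of 113 bp, and Yy1 had 11 with the widest at 101 bp. These lists were chosen with earlier results of the data known, and the share of all known genes with a cluster was not computed.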

How the data were processed

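CAGE libraries of 8 mice were described by 1 deposited table with a row per tag cluster and gene. The authors deposited positions and gene symbols on mm9. The submitters' processing notes name BWA and HISAT2 without version. How tags were joined into clusters and tied to genes is not given in the sources used here, nor whether starts count from 0 or 1. The 8 value columns match no sample label and were not used, so the planned test between groups was not run.

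Rows with 1 position were counted as 1 cluster, the span was end minus start, and the widest cluster stood for a gene. A divergent partner was the nearest opposite-strand cluster upstream within 400 bp without overlap. Wilson intervals at 95% were computed for the shares with 2 or more clusters, a widest cluster of at least 100 bp or a divergent cluster. Symbols were matched to RefSeq (GRCm38.p6), 82 as current and 5 as older symbols. No coordinate was converted between builds. Named genes were the isoform pairs, the Sdh and Atp5g genes, and in each complex the genes with the most clusters, the widest cluster or none of 10 bp, with others named after values were seen. One divergent pair is not reported here. Members and lists were chosen with earlier results of these data known. Counting was tested on simulated data, with Python 3.11.15, pandas 2.3.3 and scipy 1.17.1. Clusters under 10 bp, shared clusters and member subsets were left out as alternatives.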

Additional observations from a re-analysis of the deposited data

How the results depend on the processing

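The median widest span of OXPHOS genes stayed at 120 to 122 bp with narrow clusters, shared clusters, assembly factors or misnamed members left out, whereas that of all genes was 118 bp with clusters of at least 10 bp, in place of 110 bp. The share with a widest cluster of at least 100 bp ran from 68.6% to 71.6%. With clusters of at least 10 bp it was 70.9%, against 61.4% of all genes, so that the margin over all genes was narrower than with all clusters (70.1% against 56.0%). The share with a divergent cluster ran from 29.1% to 31.0%, or 33.3% with partners up to 1000 bp away (24.4% of all genes). The number of clusters depended on narrow ones: with clusters of at least 10 bp it was 121 in place of 226. With this setting 26.7% of OXPHOS genes had 2 or more, against 37.0% of all genes. With all clusters the shares were close (57.5% against 54.3%). The alternatives could not change the difference of 41 bp between muscle and general isoforms, since the widest clusters of these 6 genes span 69 bp or more and none is shared with another gene. No paired analysis was possible because no column of values could be tied to a replicate number. Other normalizations, tools, pseudocounts, filters and libraries left out in turn need those columns and were not run. The 1000 bp distance and the set without Cox4nb and Atp5l2 were chosen after seeing the data. Library depth was not analysed here.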

Other observations

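CpG content and span were set side by side for genes with a single RefSeq start window. Among 65 OXPHOS genes the median widest span was 130 bp over the 3 with a CpG ratio below 0.4 (Cox8b at 148 bp, Cox7b at 130 bp and Cox7a1 at 82 bp), 121.5 bp over 26 from 0.4 to 0.8 and 124 bp over 36 at 0.8 or more. Among 8825 other protein-coding symbols it was 79 bp below 0.4, 114 bp from 0.4 to 0.8 and 130 bp at 0.8 or more. The 3 CpG-poor OXPHOS genes thus lay above the 79 bp of other CpG-poor genes, with no test on so few. In the Cox8b window the TATA letters began 4 bases after the annotated start and not 20 to 40 bases before it. The Cox8b cluster of 148 bp was not placed in this window, since no coordinate was converted between builds.

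Some OXPHOS genes stand in the catalogue under older or clone names and are outside the symbol rule. Atp5mpl, a small ATP synthase subunit, had 1 cluster of 98 bp, and Ndufaf8, a complex I assembly factor, had 3 with the widest at 201 bp. Ndufaf5, Ndufaf6 and Ndufaf7 had widest clusters of 64, 99 and 59 bp. Ndufb4c had 1 cluster of 29 bp, whereas Ndufb1 and Ndufb4b had none under any of their names among those analysed here. Reads of near-identical copies can be shared, so counts for Ndufb4 and its copies are uncertain.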
